A study of Mus musculus with 16 samples.

Results

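The cells described here are CD8 T cells outside cell division that carried mRNA of an inhibitory checkpoint receptor, in tumors of C57BL/6J mice. The receptors are PD-1 (Pdcd1), LAG-3 (Lag3) and TIM-3 (Havcr2). The cells were selected on counts of unique molecular identifiers (UMIs), each of which stands for 1 captured mRNA molecule. A barcode was taken when it held at least 2 UMIs of the T cell receptor chains Cd3d, Cd3e and Cd3g together, at least 1 UMI of Cd8a and Cd8b1, 0 UMIs of Cd4, at least 1 UMI of Pdcd1, Lag3 and Havcr2, and at most 1 UMI of the proliferation genes Mki67 and Top2a. Because these values chose the cells, the levels of these genes are given as a description, with no test. The rule found 3682 cells among the 16350 barcodes left after filtering, of 28678 deposited.

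The data are single-cell 3' RNA counts of live CD45+ (hematopoietic) cells sorted from subcutaneous tumors, in 16 libraries that form 4 groups of 4. MC38 is a mouse line of colorectal carcinoma. Panc02-SIY is a mouse line of pancreatic adenocarcinoma made to express the model peptide antigen SIY. Tumors of each line were left untreated (NT) or received radiation of 12 Gy (RT), and irradiated tumors were taken 24 h later. All hosts were wild-type C57BL/6J mice, so treated and untreated groups share their genotype, while the lines differ in tumor and in the SIY antigen. The methods give fewer animals than libraries a group, and neither they nor the labels say which animal gave which library. On that count some libraries of each group share an animal. The p-values below, which count each library as a replicate, may be too small.

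Barcode strings were shared between libraries of MC38 far more than between those of Panc02-SIY. Of the 7360 filtered MC38 barcodes, 1596 strings were distinct and 1005 of these were seen in 2 or more MC38 libraries. Of the 14945 filtered Panc02-SIY barcodes, 14754 strings were distinct and 63 recurred. Each recurring string was kept only in the library with the most UMIs, which left out 5764 MC38 barcodes and 191 Panc02-SIY barcodes. Of the selected cells, 3655 (99.3%) came from Panc02-SIY tumors and 27 from MC38 tumors. With recurring strings kept, the counts would be 3670 and 80.

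CD8 T cells kill cells that present their antigen on MHC class I, by releasing granules of perforin and granzymes and by secreting cytokines. Repeated antigen contact in tumors is known to drive them into a state called exhaustion, in which PD-1, LAG-3 and TIM-3 accumulate, the transcription factor Tox is switched on, and the stem-like factor Tcf7 is lost. Ionizing radiation breaks DNA, and the break signal stabilizes the transcription factor p53, whose target genes halt the cell cycle, repair DNA or start apoptosis through the BCL2 family.

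In untreated Panc02-SIY tumors the 4 libraries held 211, 523, 405 and 944 selected cells. These were 24.7%, 31.3%, 29.8% and 27.0% of the filtered CD45+ barcodes. The irradiated libraries held 76, 454, 412 and 630, or 9.43%, 25.1%, 20.1% and 23.3%. The 2 groups overlapped, since irradiated replicate 2 exceeded untreated replicate 1, and irradiated replicate 1 was the lowest. The mean share was 28.2% ± 2.96 (SD, n = 4) without and 19.5% ± 7.01 (SD, n = 4) with radiation, a difference of -8.70 points. It was -9.61 points when every barcode was first thinned to 2000 UMIs, -5.36 without irradiated replicate 1 and -10.6 without irradiated replicate 2. Because UMIs of the selection rule define this share, it is given as a description, and no p-value is drawn from it. A lower share of sorted barcodes and fewer cells per tumor cannot be told apart here, since the tumors' cells were not counted.

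In MC38 tumors the cells were scarce. Untreated libraries held 0, 3, 2 and 6 and irradiated libraries held 1, 1, 6 and 8. The library with 0 of 165 barcodes allows a share of up to 1.82%, counting error only. The mean share was 1.32% ± 1.08 (SD, n = 4) in untreated and 1.75% ± 0.83 (SD, n = 4) in irradiated MC38 tumors. Every Panc02-SIY library had a higher share than every MC38 library, by 26.9 points on average in untreated and 17.7 points in irradiated tumors.

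**Figure D1:**
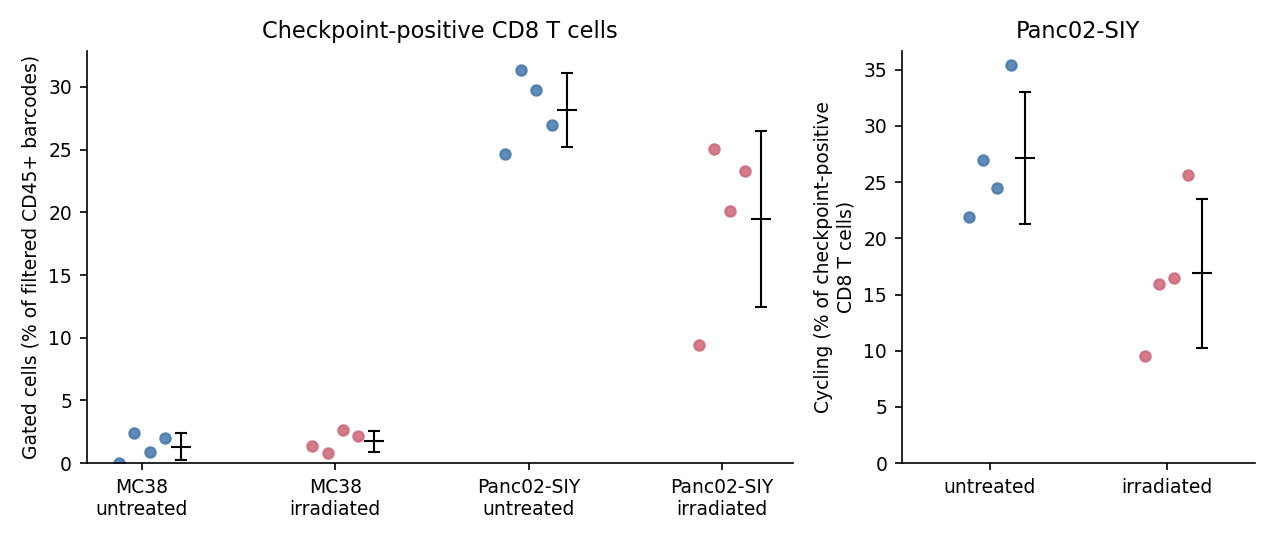
Left, selected (gated) cells as a percent of filtered CD45+ barcodes in each library (points), with the mean and SD of each group of 4 (bar) for the 4 groups. Right, cycling cells as a percent of all checkpoint-positive CD8 T cells in the Panc02-SIY libraries, on full counts. The MC38 libraries sit at or below 2.67%, and irradiated Panc02-SIY replicate 1 (9.43%) lies below the other Panc02-SIY libraries.

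Marker genes were set beside the label, and those of the selection rule cannot check it. Levels are given in CPM, the UMIs of a gene per 1000000 UMIs summed over the selected cells of a library. In Panc02-SIY 8 listed T cell genes summed to 7359 ± 369 in untreated and 7175 ± 75.1 in irradiated libraries (SD, n = 4). The 8 include Cd3d, Cd3e and Cd3g, which the rule required, so this sum is a description and no check of the label. Outside the rule, Trac averaged 783 and Trbc2 1354 over the Panc02-SIY libraries. B cell genes (6) summed to 57.7 ± 14.6 and 47.2 ± 11.9, most of it Ighm, with 0 to 4 of the 6 at 0 in a library. Neutrophil genes (5) summed to 29.5 ± 12.7 and 45.4 ± 5.90, NK cell genes (6, with Eomes) to 29.3 ± 6.20 and 38.2 ± 9.70, and tumor or stromal genes (6) to 9.80 ± 3.1 and 13.2 ± 10.1. Regulatory T cell genes (3) reached 238 ± 36.3 and 325 ± 71.8, of which Ikzf2 was the most abundant in every library, and dendritic cell genes (8) 750 ± 260 and 556 ± 317, led by Cst3 or H2-Ab1. Macrophage genes varied between the Panc02-SIY libraries: the 9 listed genes summed to 457, 716, 341 and 1742 in untreated and 79.9, 395, 813 and 589 in irradiated libraries, with C1qa the most abundant in 4 of 8. None of the 9 was at 0 in any library. Of the Panc02-SIY cells, 553 (15.1%) held 2 or more UMIs of 8 macrophage, B cell and neutrophil genes, from 8.53% to 22.7% of a library in untreated and from 5.26% to 13.8% in irradiated tumors. Of the 27 MC38 cells, 22 did. In the 1 selected cell of irradiated MC38 replicate 2, macrophage genes summed to 2581 and T cell genes to 1032, with 4 of the 8 T cell genes at 0, which goes against the label. In the 1 selected cell of irradiated MC38 replicate 1, all 3 regulatory T cell genes were found and summed to 1824, led by Il2ra at 912, while 2 of the 5 genes that mark checkpoint-expressing CD8 T cells were at 0. In irradiated MC38 replicate 3 macrophage genes summed to 2307, dendritic cell genes to 2189 and T cell genes to 5623.

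Depth differed between the treatments. The median UMIs of a selected cell were 7398, 7545, 7629 and 8506 in untreated and 6917, 6229, 5331 and 6958 in irradiated Panc02-SIY libraries, with no overlap. The libraries held 563490 to 8973622 UMIs of selected cells in all, and irradiated replicate 1 was the shallowest. Median mitochondrial shares were close, 2.82% to 3.54% and 2.91% to 3.63%. Apart from a refit with every cell thinned to 2000 UMIs, which leaves the libraries' numbers of cells unequal, the part of depth in the results was not tested.

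Of the 3 receptors, Lag3 mRNA was found most often. A Lag3 UMI was present in 91.4% ± 2.40 of untreated and 88.5% ± 5.36 of irradiated selected cells (SD, n = 4 libraries). Pdcd1 was present in 70.6% ± 7.14 and 62.1% ± 9.01, and Havcr2 in 59.5% ± 4.51 and 60.2% ± 8.11. In B cells of the same tumors, which should lack them, the shares were 0.66% for Lag3, 0.66% for Pdcd1 and 1.99% for Havcr2 at a median of 3440 UMIs, against 7242 in the selected cells. These were 151 cells. Lag3 was found in 6.53% of 1931 neutrophils at a median of 2803 UMIs and in 10.3% of 2425 macrophages at 6064. Macrophages, which are known to express Havcr2, had it in 32.9% of barcodes, and the neutrophils had it in 29.4%. All 3 receptors together were found in 41.4% ± 2.33 of untreated and 34.1% ± 4.84 of irradiated cells. Cells with Havcr2 but neither PD-1 nor LAG-3 mRNA were few, 3.17% ± 1.20 and 4.66% ± 3.51. After thinning to 2000 UMIs a cell, 160 of 211, 399 of 523, 314 of 405 and 725 of 944 selected cells of the untreated libraries still passed the rule, as did 61 of 76, 346 of 454, 343 of 412 and 507 of 630 of the irradiated ones. Of these remaining cells, 9.57% ± 1.63 and 9.54% ± 1.14 held all 3 receptors, and 36.5% ± 0.73 and 32.8% ± 4.63 held Lag3 alone.

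**Figure D2:**
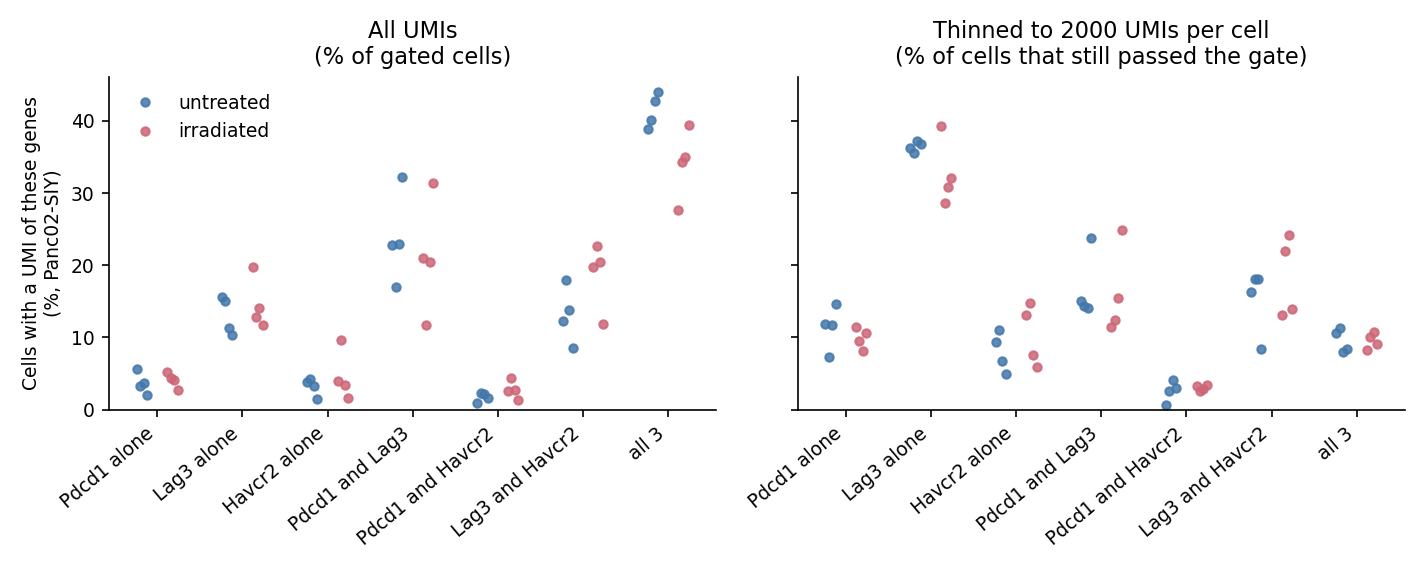
Percent of cells of each Panc02-SIY library (points) with a UMI of the named receptor genes and of no other receptor of the 3, of all selected (gated) cells with all UMIs (left) and, after thinning each cell to 2000 UMIs, of those that still passed the selection rule (right). At 2000 UMIs a cell, those with all 3 receptors sit near 9.5% in both treatments.

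Most cells lay well inside the gate. Their median was 7 receptor UMIs, and 270 (7.33%) held exactly 1. Just outside lay 525 non-cycling CD8 T cells with 0 receptor UMIs, here called checkpoint-negative. At the proliferation limit, 954 selected cells held 1 UMI of Mki67 and Top2a, while 359 checkpoint-positive cells just outside held 2. Among non-cycling CD8 T cells thinned to 2000 UMIs, the checkpoint-positive share in Panc02-SIY was 71.1% ± 3.95 without and 67.4% ± 12.2 with radiation (SD, n = 4). Without irradiated replicate 1 the difference turned from -3.75 to 2.04 points. Without thinning, the libraries ran from 85.6% to 94.1% and from 66.7% to 89.5%. In MC38 this share rests on very few cells a library, at 26.8% ± 31.1 without and 66.1% ± 25.1 with radiation (SD, n = 4), with 0 to 3 checkpoint-negative cells in each. The difference of 39.3 points was 6.24 with recurring barcodes kept, 1.79 when 2 receptor UMIs were required, 13.2 without thinning and -11.0 at 1000 UMIs. These shares too are descriptions, because the rule used the receptor UMIs that define them. Cycling cells, which the rule left out, made up 21.9%, 27.0%, 24.4% and 35.4% of checkpoint-positive CD8 T cells in untreated and 9.52%, 15.9%, 16.4% and 25.6% in irradiated Panc02-SIY libraries. The groups overlapped through irradiated replicate 4, and this share is a description as well. It was read on full counts, without thinning, while selected cells of the untreated libraries held more UMIs. The part of depth in it was not tested.

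The question at the center was what 12 Gy changed in these cells at 24 h. In Panc02-SIY tumors 116 of 11597 tested genes were called (1.00%). A call needed a fold above 1.3 together with an adjusted p (Benjamini-Hochberg) under 0.1 in edgeR's quasi-likelihood test on UMIs summed per library. Of these 66 rose (0.569% of genes tested) and 50 fell (0.431%). The number that fell was the less stable, between 12 (without irradiated replicate 3) and 94 (without MC38 irradiated replicate 4) when 1 library was left out, against 44 to 97 that rose. It was 14, 18 and 16 without untreated replicate 2, untreated replicate 4 and irradiated replicate 1, and 17 at an adjusted p below 0.05. With the replicate number as a block, 149 rose and 180 fell. Without the cells that held other-lineage UMIs, 140 rose and 139 fell. Of 43 tested genes on a list of p53 targets, which was drawn up with earlier results of these data known, 24 rose and 0 fell, with a median log2 fold change of 1.02 against 0.004 over all genes tested. The other 42 risen genes were outside the list. Each of the 66 risen and 42 of the 50 fallen genes had no overlap between the 4 untreated and 4 irradiated libraries, where 7.94% of all tested genes had none. Leaving out 1 library changed the number of calls from 116 to between 56 (without irradiated replicate 3) and 191 (without MC38 irradiated replicate 4, which shares the estimate of spread), with 61, 75 and 67 without untreated replicates 2, 3 and 4, 69 without irradiated replicate 1 and 185 without MC38 irradiated replicate 3. Among p53 targets 23 to 25 rose in each of these fits, and 19 rose when every cell was thinned to 2000 UMIs, where 102 genes were called in all and 64 of the 116 were among them. DESeq2 called 13 p53 targets as higher, and 11 of the 24 had no adjusted p there.

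Cdkn1a encodes p21, the p53 target that halts the cell cycle by inhibiting cyclin-dependent kinases. Its level (CPM) was 3.47, 15.1, 12.3 and 21.95 in the untreated libraries and 161, 164, 143 and 166 in the irradiated ones. All irradiated libraries lay far above all untreated ones, and edgeR put the log2 fold change at 3.31 ± 0.403 (SE, adjusted p = 0.0133). At 2000 UMIs a cell, 1.66% ± 0.84 of untreated and 19.5% ± 2.87 of irradiated cells held a Cdkn1a UMI (SD, n = 4), so most cells had none at that depth. Ccng1, cyclin G1, stood at 62.5, 71.5, 74.1 and 60.3 without and 406, 298, 321 and 340 with radiation. This was the rise with the smallest adjusted p (log2 fold change 2.25 ± 0.121, SE, edgeR adjusted p = 3.82e-10), and 13.3% ± 2.38 against 45.1% ± 4.29 of thinned cells held a UMI. Phlda3, a p53-induced inhibitor of Akt signaling, was nearly absent without radiation, at 0, 0.457, 2.34 and 0.557, and stood at 60.3, 29.4, 30.5 and 35.4 with it. The untreated values rest on 0, 2, 8 and 5 UMIs, so the estimate of 5.28 ± 0.397 on the log2 scale (SE, edgeR adjusted p = 1.2e-06) is imprecise.

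Mdm2, the ligase that degrades p53, also rose. It stood at 52.7, 50.7, 52.1 and 47.1 in untreated and 106, 83.1, 89.3 and 100 in irradiated libraries, or 0.81 ± 0.137 on the log2 scale (SE, edgeR adjusted p = 0.003). The untreated values were close together and the groups did not overlap. Its relative Mdm4, which was not on the list, rose from a mean of 76.6 to 178 (log2 fold change 1.11). Of other listed genes that act on p53, the phosphatase gene Ppm1d (0.14) and Pml (0.23) did not pass the test. Aen, an apoptosis-enhancing nuclease, rose from 22.5 ± 4.43 to 67.0 ± 13.7 (SD, n = 4), and Trp53inp1, a p53-inducible nuclear protein, from 46.5 ± 11.4 to 138 ± 18.6. Rps27l, a ribosomal protein paralog and p53 target, rose from 232 ± 22.5 to 477 ± 46.0. Of the p53 targets in DNA repair, Polk, a polymerase that bypasses damaged bases, rose by 0.88 on the log2 scale, while Xpc (-0.28), Ddb2 (0.06) and Rrm2b (0.05) did not pass the test.

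RefSeq promoter windows (300 bases, 250 before to 50 after a transcription start, build GRCm38.p6, the mm10 of the files) were searched on both strands for the 10-base p53 half-site consensus. Among 27025 genes with a window, 9.55% held a match, as did 12 of 50 risen genes (24.0%) and 4 of 33 fallen genes (12.1%) with one. Windows of the risen p53 targets with a match and the highest log2 fold changes are shown because they hold such sites beside genes that moved together. They were chosen after the values were seen, the half-sites are in capitals, and a match is not a bound site. The Cdkn1a window, at 1 of its 2 annotated starts, holds 2 half-sites at most 13 bases apart, which 0.074% of genes with a window have. It lies at chr17:29090729-29091028 on the + strand.
Cdkn1a: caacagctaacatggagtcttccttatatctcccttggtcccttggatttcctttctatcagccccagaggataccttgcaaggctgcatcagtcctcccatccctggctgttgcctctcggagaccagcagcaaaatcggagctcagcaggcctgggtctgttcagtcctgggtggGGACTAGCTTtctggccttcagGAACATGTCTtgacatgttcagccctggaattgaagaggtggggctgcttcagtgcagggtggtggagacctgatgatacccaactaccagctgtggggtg
The Ccng1 window lies at chr11:40755237-40755536 on the - strand.
Ccng1: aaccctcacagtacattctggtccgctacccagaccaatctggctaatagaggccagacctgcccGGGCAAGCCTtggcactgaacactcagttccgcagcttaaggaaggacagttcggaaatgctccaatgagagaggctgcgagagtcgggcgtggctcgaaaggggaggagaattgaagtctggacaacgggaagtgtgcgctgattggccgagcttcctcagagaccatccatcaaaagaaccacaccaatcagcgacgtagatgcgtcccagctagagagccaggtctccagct
The Aen window lies at chr7:78895677-78895976 on the + strand.
Aen: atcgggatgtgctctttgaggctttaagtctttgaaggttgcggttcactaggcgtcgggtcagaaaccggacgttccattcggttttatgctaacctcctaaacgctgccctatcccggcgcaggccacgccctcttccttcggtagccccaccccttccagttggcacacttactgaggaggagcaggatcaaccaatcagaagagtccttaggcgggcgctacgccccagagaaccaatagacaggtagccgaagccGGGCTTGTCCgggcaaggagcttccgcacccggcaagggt
The Bax window lies at chr7:45466849-45467148 on the - strand.
Bax: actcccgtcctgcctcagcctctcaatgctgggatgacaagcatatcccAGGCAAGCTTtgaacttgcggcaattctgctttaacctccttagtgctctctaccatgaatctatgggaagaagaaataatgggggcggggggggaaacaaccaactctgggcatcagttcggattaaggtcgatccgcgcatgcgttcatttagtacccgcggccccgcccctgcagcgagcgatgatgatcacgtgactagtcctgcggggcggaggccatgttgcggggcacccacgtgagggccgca

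Among 16 tested BCL2 family genes, which decide on mitochondrial apoptosis, 4 rose and 0 fell, where 0.569% of all tested genes rose, and all 4 were also on the p53 list. Bax, which forms pores in the mitochondrial membrane, stood at 122, 109, 117 and 133 in untreated and 366, 319, 286 and 345 in irradiated libraries. The lowest irradiated library was well above the highest untreated one, and edgeR put the log2 fold change at 1.36 ± 0.124 (SE, adjusted p = 1.3e-06). Bbc3 (PUMA), a BH3-only activator of Bax, stood at 0.579, 2.28, 2.34 and 1.56 without and 26.6, 17.1, 18.0 and 18.6 with radiation. Pmaip1 (NOXA), another BH3-only gene, rose from 34.9 ± 10.3 to 83.0 ± 15.1. Bcl2l1, which encodes the survival protein BCL-XL, rose as well, from 28.6 ± 3.11 to 50.4 ± 3.6 (log2 fold change 0.72 ± 0.134, SE, edgeR adjusted p = 0.01). So genes on both sides of the family rose. The death receptors Fas (7.05 ± 1.25 to 14.9 ± 3.48) and Tnfrsf10b (1.29 ± 0.345 to 5.87 ± 0.730, at 3 to 12 UMIs in each untreated library) rose too, and so did Apaf1, the core of the apoptosome (41.5 ± 2.16 to 73.9 ± 5.17). The Fas call held in 15 of 21 other settings of the fit, and was lost without untreated replicate 2, 3 or 4 or irradiated replicate 3. With thinned cells Fas (log2 fold change 1.11, edgeR adjusted p = 0.253), Bcl2l1 (0.57, edgeR adjusted p = 0.337) and Tnfrsf10b (2.22, edgeR adjusted p = 0.297) did not pass.

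**Figure D3:**
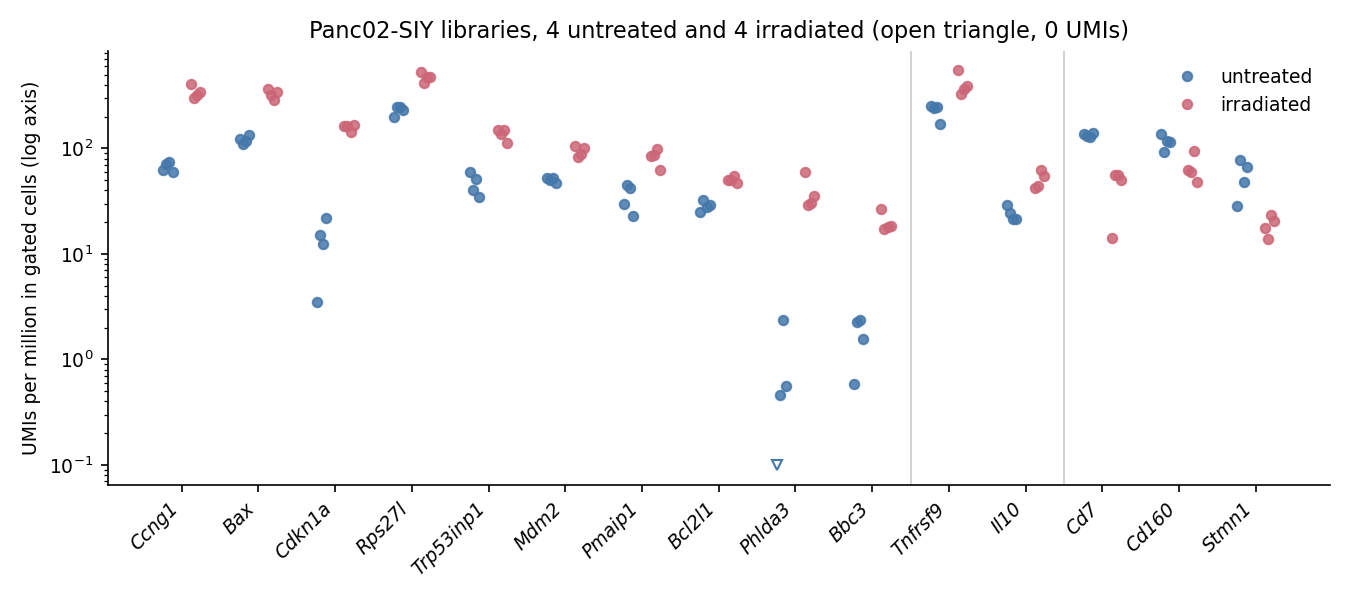
CPM (log axis) in the selected cells of each Panc02-SIY library for 10 p53 target genes (left of the first grey line), Tnfrsf9 and Il10 (between the lines) and 3 genes that fell (right). For the 10 p53 targets every irradiated library lies above every untreated one, and the open triangle marks a library with 0 Phlda3 UMIs.

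Several genes with roles in T cell signaling were among the rises, with few called in any 1 list, where 0.569% of all tested genes rose. Tnfrsf9 (4-1BB), a costimulatory receptor induced on antigen contact, stood at 251, 242, 245 and 169 in untreated and 548, 331, 365 and 390 in irradiated libraries. All irradiated libraries were higher (log2 fold change 0.76 ± 0.155, SE, edgeR adjusted p = 0.0238), and it was the only called gene of 11 tested costimulatory receptors. Il10, an anti-inflammatory cytokine, rose from 24.1 ± 3.53 to 50.9 ± 9.32, and Cxcl10, an interferon-inducible chemokine for T cells, from 16.1 ± 7.56 to 46.4 ± 14.1. These were the 2 called of 19 cytokines and chemokines, whose median log2 fold change was 0.46. Prdm1 (Blimp-1), a factor of effector and exhausted T cells, rose from 59.2 ± 11.2 to 91.9 ± 10.4 and was the only one called of 20 effector and exhaustion factors. Socs2, a brake on cytokine signaling, rose from 27.6 ± 8.21 to 58.3 ± 11.9, the only one called of 25 cytokine receptors and STAT regulators. Ulbp1, a ligand of the activating receptor NKG2D, rose from 8.20 ± 1.64 to 26.6 ± 6.41. Cd80, a ligand of CD28 and CTLA-4 and a member of the p53 list, rose from 10.7 ± 3.65 to 32.3 ± 10.1. Macrophages also make Il10, Cxcl10 and Cd80. Without the cells that held other-lineage UMIs, Cd80 still rose (log2 fold change 1.62 against 1.51 with all cells, edgeR adjusted p = 0.00326). Il10 (1.21 against 1.06, edgeR adjusted p = 0.11) and Cxcl10 (1.15 against 1.645, edgeR adjusted p = 0.556) no longer passed, although the Il10 fold was no smaller. Over all other settings of the fit the calls held in 10 of 22 for Cxcl10, 14 of 22 for Prdm1 and 12 of 21 for Socs2, and in 22 of 22 for Tnfrsf9.

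Steep rises were also found in genes on no list. Gm42047, a predicted gene, rose from 10.0 ± 0.634 to 159 ± 69.2, and Exoc4, a subunit of the exocyst that tethers secretory vesicles, from 56.1 ± 6.10 to 194 ± 14.5 (log2 fold change 1.71 ± 0.119, SE, edgeR adjusted p = 2.19e-08). Celf5 (log2 fold change 4.015), Fam212b (3.95) and Chil3 (3.19) rose more steeply than Exoc4, but only to means of 8.76, 11.6 and 5.87. Chil3 stood at 5.32, 1.65, 3.2 and 13.3 in the irradiated libraries. Its value without the cells that held other-lineage UMIs is not given here. Rps19, a ribosomal protein, rose from a mean of 2366 to 4997, a value that pseudogene copies could share.

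Some of the 50 fallen genes have known roles in the cell cycle, and the gate had capped Mki67 and Top2a. Stmn1 (stathmin), which destabilizes microtubules for mitosis, stood at 28.4, 78.4, 48.3 and 67.2 without and 17.8, 13.9, 23.2 and 20.4 with radiation (log2 fold change -1.67 ± 0.3, SE, edgeR adjusted p = 0.04). Ube2c, which drives mitotic exit, fell from 22.2 ± 4.19 to 10.4 ± 2.33, and Ccnb2, a mitotic cyclin, from 8.16 ± 4.79 to 0.996 ± 1.10. Of 21 S phase genes, Tyms and Dut, both of thymidine synthesis, were the 2 that fell, where 0.431% of all tested genes did (16.2 ± 2.23 to 7.45 ± 2.63, and 132 ± 18.9 to 97.7 ± 17.4), and the Dut values overlapped between groups. In the cycling cells outside the gate Tyms averaged 77.2 and Dut 402 over the 8 libraries, against 11.8 and 115 in the selected cells. The calls for Stmn1, Tyms and Dut held in 16 of 21, 13 of 21 and 14 of 22 other settings of the fit, and most losses came from leaving out 1 library.

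Surface genes were also among the falls. Cd7, a T and NK cell surface protein, stood at 138, 130, 127 and 141 in untreated and 14.2, 55.4, 55.7 and 50.3 in irradiated libraries, with no overlap (log2 fold change -1.54 ± 0.22, SE, edgeR adjusted p = 0.00588). Cd160, an inhibitory receptor for HVEM, stood at 136, 92.6, 119 and 115 without and 62.1, 59.7, 94.5 and 48.4 with radiation. The groups overlapped through irradiated replicate 3 (log2 fold change -0.88 ± 0.166, SE, edgeR adjusted p = 0.0143). Cd160 was the one called of 14 tested inhibitory receptors outside the gate, where 0.431% of all tested genes fell. Rgs10, a regulator of G protein signaling, fell from 99.9 ± 15 to 45.3 ± 16.9, and Cd52, an abundant lymphocyte surface glycoprotein, from 5021 to 3392. The remaining falls included small changes of abundant genes, such as Cfl1 (cofilin, log2 fold change -0.46), Ndufa4 of the respiratory chain (-0.44) and Pfn1 (profilin, -0.50).

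Effector genes did not pass the test in either direction. Gzmb (granzyme B) stood at 728, 1364, 794 and 1098 in untreated and 861, 1788, 1717 and 1430 in irradiated libraries, overlapping between groups (log2 fold change 0.47 ± 0.275, SE, edgeR adjusted p = 0.672). Prf1 (perforin) was at 214, 305, 248 and 286 against 399, 356, 366 and 599, with no overlap but an adjusted p of 0.259 by edgeR (log2 fold change 0.63 ± 0.197, SE). Ifng (interferon gamma) was at 622, 639, 544 and 249 against 575, 1159, 649 and 561 (log2 fold change 0.46 ± 0.355, SE, edgeR adjusted p = 0.791). Of 18 cytotoxic granule genes 0 were called (median log2 fold change 0.09), as were 0 of 78 interferon-stimulated genes (0.10), 0 of 20 MHC class I presentation genes (-0.03), 0 of 32 DNA repair genes (-0.06), 0 of 29 T cell receptor and immediate early genes (0.22) and 0 of 14 progenitor, naive and memory genes (0.06). Of all 11597 tested genes 116 (1.00%) were called, and 0 calls in lists of this size lie near that share. At an unadjusted p below 0.05 these lists held 2, 8, 2, 1, 2 and 1 genes by edgeR, where 1099 of all 11597 tested genes had such a p. Tox (log2 fold change -0.05 ± 0.191, SE), Tcf7 (-0.54 ± 0.297), Eomes (0.22 ± 0.318) and Tbx21 (0.10 ± 0.131) did not pass the test, nor did Ctla4 (0.26 ± 0.126), whose groups were separated by a narrow gap. No genes were called among 14 NK receptors, 17 chemokine receptor and adhesion genes, 23 glycolysis and hypoxia genes and 13 heat shock genes, where 1.00% of all tested genes were. At an unadjusted p below 0.05 by edgeR they held 1, 2, 2 and 0 genes, against the same 1099 of 11597.

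**Figure D4:**
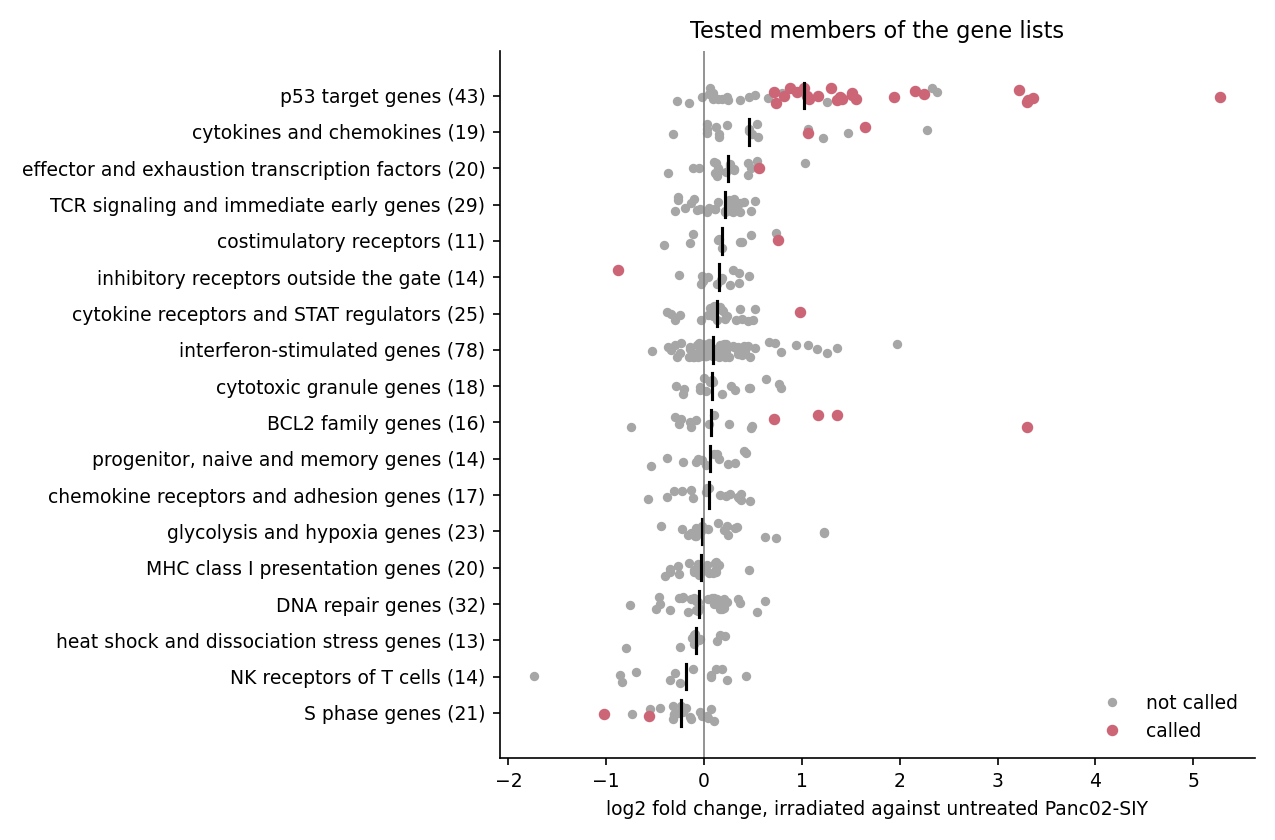
Each point is a tested gene of a list (number tested in brackets), placed by its log2 fold change in irradiated against untreated Panc02-SIY tumors, with called genes in color, others in grey and the list median as a black bar. The p53 targets lie furthest right, with a median of 1.02, while most lists are centered near 0.

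Checkpoint-negative CD8 T cells of the same libraries give the nearest comparison. Of 6101 genes at 20 CPM or more in either population, 672 (11.01%) were higher in checkpoint-positive cells in all 8 Panc02-SIY libraries and 483 (7.92%) lower in all 8. These are descriptions, with no test, because having a receptor UMI depends on depth: checkpoint-negative cells had medians of 4529 to 6966 UMIs, under those of the selected cells in every library. Cells with other-lineage UMIs were kept in both populations, and their part in the differences was not tested. Ccl3 and Ccl4, chemokines of activated T cells, averaged 740 ± 299 and 3342 ± 1276 in selected cells (SD over 8 libraries) and 57.3 ± 21.95 and 533 ± 216 in checkpoint-negative cells. Tox averaged 250 ± 66.5 against 65.3 ± 26.3, Prf1 347 ± 119 against 107 ± 28.6, Ifng 625 ± 251 against 192 ± 70.9 and Tnfrsf9 318 ± 119 against 61.8 ± 42.2, each higher in 8 of 8 libraries. The stem-like and naive genes ran the other way. Tcf7 averaged 22.98 ± 9.82 against 235 ± 45.1 and S1pr1, which guides exit from tissue, 32.9 ± 18.1 against 279 ± 72.0, each lower in 8 of 8.

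By list, 12 of 14 progenitor, naive and memory genes at that level were lower in checkpoint-positive cells in all 8 libraries, and 13 of 19 effector and exhaustion factors were higher in all 8. Of 71 interferon-stimulated genes, 31 were lower in all 8 and 1 was higher. Granzyme genes were mixed: Gzmb was higher in 8 of 8 libraries (1222 ± 414 against 807 ± 173), whereas Gzma was higher in 3 of 8 and had a wide spread (1392 ± 1010 against 1363 ± 794). Eomes, a factor of memory cells and of exhausted cells, was lower in 8 of 8 (15.4 ± 3.71 against 67.9 ± 21.3), while Tbx21 was higher in 8 of 8.

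**Figure D5:**
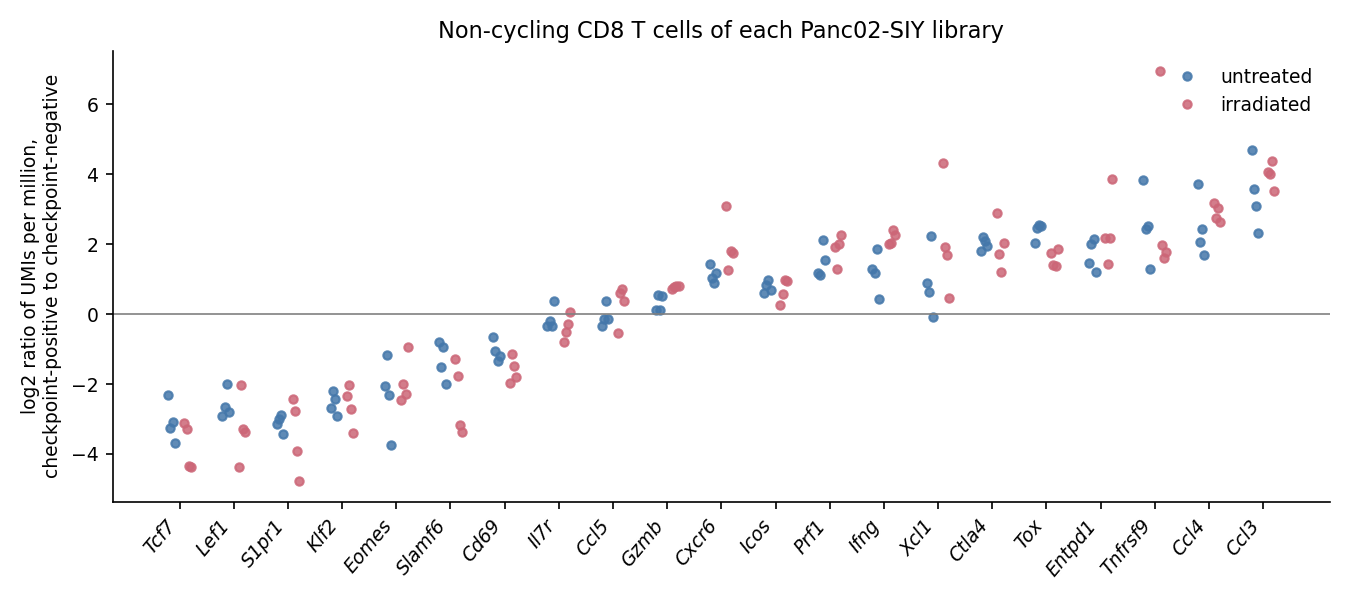
log2 ratio of CPM in checkpoint-positive to checkpoint-negative CD8 T cells of each Panc02-SIY library (points) for 21 genes, with a library omitted where a gene had 0 UMIs. Tcf7 and S1pr1 lie below 0 and Ctla4, Tox, Ccl4 and Ccl3 above 0 in all libraries drawn.

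The p53 targets Cdkn1a, Ccng1 and Bax were also followed in the other CD8 populations. In checkpoint-negative cells Cdkn1a averaged 19.6 ± 17.8 in untreated and 256 ± 84.8 in irradiated libraries, Ccng1 55.6 ± 6.89 and 231 ± 33.5, and Bax 98.9 ± 21.0 and 269 ± 30.9 (SD, n = 4). In the cycling checkpoint-positive cells Cdkn1a averaged 19.3 ± 9.54 and 213 ± 93.2. The difference of the radiation effect between checkpoint-positive and checkpoint-negative cells was tested in 1 model with each library as a block. It called 0 of 8388 genes (0% by edgeR, with 524 at an unadjusted p below 0.05, and 0 by DESeq2). The difference was -0.12 ± 0.452 for Cdkn1a, 0.21 ± 0.202 for Ccng1 and 0.01 ± 0.168 for Bax (log2, SE), intervals wide enough for a difference in Cdkn1a in either direction. Gzmb (0.43 ± 0.098, edgeR adjusted p = 0.15) and Tox (-0.82 ± 0.217, edgeR adjusted p = 0.33) did not pass.

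Within the gate, cells with and without a Havcr2 UMI were compared as a description, since Havcr2 belongs to the rule. The 2189 cells with it had a median of 7558 UMIs and the 1466 without 6808. Havcr2 was also found in 32.9% of macrophages and 29.4% of neutrophils. Of the selected Panc02-SIY cells, 15.1% held other-lineage UMIs. These were kept here, and their part in the differences below was not tested. Ccl3 averaged 1025 ± 373 with and 190 ± 32.9 without Havcr2 (SD over 8 libraries), Gzmb 1481 ± 456 and 736 ± 287, Prf1 422 ± 160 and 207 ± 80.4, and Ifng 762 ± 304 and 354 ± 112, each higher in 8 of 8 libraries. Prdm1 was also higher in 8 of 8 (91.2 ± 25.8 and 46.6 ± 11.7), whereas Slamf6, a marker of stem-like cells, was lower in 8 of 8 (15.4 ± 16.1 and 36.0 ± 19.97). Tox (246 ± 65.0 and 258 ± 71.6), Pdcd1 (223 ± 33.8 and 224 ± 28.1) and the p53 targets Ccng1 (206 ± 154 and 202 ± 144) and Mdm2 (71.7 ± 22.8 and 74.0 ± 28.1) were close. Cdkn1a was the exception among these p53 targets, higher with Havcr2 in 8 of 8 (101 ± 92.4 and 58.5 ± 54.2).

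In MC38 tumors only 3 libraries had the 5 cells needed for a fit: untreated replicate 4 with 6 cells, and irradiated replicates 3 and 4 with 6 and 8. The lone untreated library has no measured spread, which was assumed to be like that of the other groups, and its 6 cells all held other-lineage UMIs. Under that assumption the fit of radiation called 11 of 11597 genes (0.0949%), 8 higher and 3 lower. DESeq2 called 50 higher and 33 lower, and edgeR on thinned cells 2 and 3. Without MC38 irradiated replicate 3 or 4, 35 or 30 genes were called, and with recurring barcodes kept 0 were. The calls include Ccng1, with 1 UMI in the untreated library and 14 and 21 in the irradiated ones (edgeR adjusted p = 0.0611), Bax, with 9 against 38 and 64 (edgeR adjusted p = 0.0506), and Tnfrsf9, with 13 against 65 and 121 (edgeR adjusted p = 0.0506). Cdkn1a had 0 UMIs against 72 and 34 and Phlda3 0 against 6 and 11, but neither passed the test (edgeR adjusted p = 0.633 and 0.636).

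The lines were compared within each treatment. The untreated MC38 arm is again the 1 library of 6 cells, with its spread taken from the other groups. Between untreated tumors 67 of 11597 genes were called (0.578%, 24 higher and 43 lower in MC38) and between irradiated tumors 813 (7.01%, 275 higher and 538 lower). The balance of directions depends on scaling and depth. DESeq2 called 147 higher and 15 lower between untreated tumors, RLE factors 35 and 17, and thinned cells 0 and 54. Between irradiated tumors these were 662 and 196, 377 and 305, and 16 and 341. The median log2 difference over all genes was -0.77 and -0.32, and MC38 sums held 81621 to 128756 UMIs. Of the called genes higher in irradiated MC38 cells, the leaders were macrophage genes, such as Trem2, a lipid receptor (13 and 4 UMIs), and Ccl2, a monocyte chemokine (151 and 11 UMIs), and most of these UMIs came from replicate 3. In both irradiated MC38 libraries most selected cells held other-lineage UMIs (4 of 6 and 6 of 8), and their part in these calls was not tested. T cell genes lower in irradiated MC38 cells included Nr4a2, an orphan nuclear receptor induced by T cell receptor signals (a mean of 254 against 810, edgeR adjusted p = 0.000766), Id2, an effector regulator (645 against 1880, edgeR adjusted p = 0.000766) and Tox (76.4 against 257, edgeR adjusted p = 0.0505). Tnfrsf9 was higher there (819 against 409, edgeR adjusted p = 0.00763). Among 20 effector and exhaustion factors 8 were lower and 0 higher in irradiated MC38 cells (median log2 difference -0.77), and among 23 glycolysis and hypoxia genes 9 were higher and 0 lower (1.09). Of 29 T cell receptor and immediate early genes 10 were higher and 0 lower (0.71), among them Fosb, Jun and Jund, and of 13 heat shock and dissociation stress genes 4 were higher and 0 lower (0.44). Between untreated tumors 5 of 78 interferon-stimulated genes were higher in MC38 and 0 lower (0.95), on 1 MC38 library of 6 cells. Between irradiated tumors the interferon-stimulated genes went both ways, with 11 higher and 4 lower in MC38 (0.62). So did the p53 targets (4 and 4) and the MHC class I presentation genes (2 and 3). With thinned cells 4 of the 8 effector and exhaustion calls held, as did 2 of the 10 T cell receptor and immediate early, 0 of the 9 glycolysis and 0 of the 5 interferon calls. The untreated count was 112 and 116 without MC38 irradiated replicate 3 or 4, 42 and 37 without Panc02-SIY untreated replicate 1 or 3, 43 without Panc02-SIY irradiated replicate 1, and 767 with recurring barcodes kept. The irradiated count was 414 and 479 without MC38 irradiated replicate 3 or 4. These comparisons share their MC38 libraries with that of radiation in MC38.

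The term for a difference of the radiation effect between the lines called 4 of 11597 genes (0.0345%), 2 in each direction, against 28 and 12 with DESeq2, 0 and 1 with RLE factors, and 1 and 0 with thinned cells. Styk1, a pseudokinase, had 37 UMIs in the untreated and 4 and 11 in the irradiated MC38 libraries, while its level in Panc02-SIY lay between 51.3 and 60.9 in untreated and 63.9 and 97.6 in irradiated libraries, in CPM (difference of log2 fold changes -3.06 ± 0.444, SE, edgeR adjusted p = 0.0111). Tfrc, the transferrin receptor, had 14 against 2 and 2 UMIs in MC38 (-3.69 ± 0.697, SE, edgeR adjusted p = 0.0968). Nfat5, an osmotic stress factor (3.97 ± 0.739, SE), and Xist, the X inactivation RNA (1.83 ± 0.335, SE), had positive differences, each at an edgeR adjusted p of 0.0968. All 4 rest on 1 untreated MC38 library of 6 cells, each with other-lineage UMIs and with no measured spread, so a difference between the lines is not established, and 1 to 16 genes were called when single libraries were left out. The highest counts came without MC38 irradiated replicate 3 (16) and replicate 4 (14).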

How the data were processed

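The authors deposited UMI counts per gene and barcode for each library, made from 10x 3' libraries (Cell Ranger 3.1.0, bcl2fastq 2.20.0, build mm10, per the labels). A matrix pooling all samples was not used here. Barcodes with at least 500 genes and at most 10% mt- UMIs were kept, and a string found in several libraries of a tumor line was kept where its UMIs were highest. No doublet caller was run. The members, gene lists and tests were chosen with earlier results of these data known.

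UMIs of the selected cells were summed per library (at least 5 cells) and fitted over all 4 groups with edgeR 4.0.16 in R 4.3.3 (TMM factors, filterByExpr with a minimum count of 5 and total of 15, robust quasi-likelihood, 1 coefficient per group). The study's thresholds, a fold above 1.3 with an adjusted p under 0.1, defined calls. The 11 genes of the selection rule were left out of calls. Levels are counts per 1000000 UMIs (CPM) of the summed cells, before TMM scaling. Named genes were, per comparison, up to 12 rises and 12 falls among called genes with no overlap and a mean of at least 20, called members of 18 lists, and a set of T cell and p53 genes. Genes outside this rule (Mdm4, Rps19, Cd52, Cfl1, Ndufa4, Pfn1, Ccnb2, Xpc, Ddb2, Rrm2b, Ppm1d, Pml, Celf5, Fam212b, Chil3, S1pr1) and the promoters were named after their values were seen. Shares were also compared by exact two-sided permutation of libraries (scipy 1.17.1), but since UMIs of the selection rule define them, these p-values are not used. Alternatives were DESeq2 1.42.0, other normalization, filters, thresholds, depth and gate, and leaving out each library. The scripts were tested on simulated data. Intervals and floors of 3 counts cover counting error only.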

Additional observations from a re-analysis of the deposited data

Results flagged for a closer look

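In 9 of 162 groups of 4 Panc02-SIY libraries, 1 library stood far from the other 3 in its level of a named gene, and chance alone flags about 5% of groups. The values below are CPM. Irradiated replicate 1, the shallowest library, was high in Bbc3 (26.6, nearest 18.6) and low in Cd7 (14.2, nearest 50.3) and Tyms (3.55, nearest 8.25). Irradiated replicate 2 was high in Ifng (1159, nearest 649), and irradiated replicate 3 was high in Fas (20.03, nearest 13.5). One irradiated library was low in Cxcr3 (34.3, nearest 48.8). Among untreated libraries, replicate 4 was low in Tnfrsf9 (169, nearest 242), 1 library was high in Gzma (2734, nearest 994) and 1 was high in Icos (433, nearest 373).

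The radiation effect in MC38 minus that in Panc02-SIY was called by the interaction term for 4 genes, in a fit that took the spread of the lone untreated MC38 library from the other groups. The differences on the log2 scale were 3.97 for Nfat5, 1.83 for Xist, -3.69 for Tfrc and -3.06 for Styk1. Nfat5 had 1 UMI in the untreated and 25 and 28 in the irradiated MC38 libraries, Xist 23 against 109 and 126, Tfrc 14 against 2 and 2, and Styk1 37 against 4 and 11.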

How the results depend on the processing

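In Panc02-SIY, none of the 116 called genes with a value changed sign under any alternative. Counts of calls, in the order MC38 radiation effect (11), Panc02-SIY radiation effect (116), untreated lines (67), irradiated lines (813) and interaction (4), moved as follows. DESeq2 called 83, 157, 162, 858 and 40, and 13 p53 targets in place of 24, since 11 had no adjusted p there. RLE factors left 1 interaction call. No filter gave 30, 191, 102, 843 and 20, and 14 in the test between populations (0). An adjusted p below 0.05 gave 3, 64, 24, 479 and 1. Thinned cells gave 5, 102, 54, 357 and 1, at least 2 checkpoint UMIs 6, 116, 37, 840 and 2, and shared barcodes kept 0, 86, 767, 1013 and 0. In Panc02-SIY, 279 genes were called without cells holding other-lineage UMIs (110 of the 116 among them) and 194 with only libraries of 10 or more cells. Leaving out each library gave 10 to 35, 56 to 191, 37 to 116, 414 to 817 and 1 to 16, 0 to 3 between populations, and 55 to 116 of the 116. The causes were not tested.

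The labels do not say whether replicate numbers pair the libraries, and the values do not settle it. In Panc02-SIY the same-numbered correlations were 0.285, 0.083, 0.045 and 0.695. Those between unlike numbers ran from -0.498 to 0.375. With the replicate block 24, 329, 67, 722 and 17 genes were called. Pairing leaves a mean difference of shares unchanged by arithmetic, so the shares are no check here. The line differences of the CD45+ share stayed at -26.9 and -17.7 points. That of the CD8 T cell share between untreated lines stayed at -44.3 points.

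Shares are given as values, since UMIs of the rule define them. The checkpoint-positive CD45+ share in irradiated against untreated Panc02-SIY differed by -9.61 points when thinned. The checkpoint-positive share of CD8 T cells reversed to 0.128 points in Panc02-SIY with at least 2 UMIs and to -11.0 in MC38 at 1000 UMIs. Its untreated line difference (-44.3) was -25.5 with at least 2 UMIs, -31.7 with full counts, -21.1 at 1000 UMIs and -24.1 with shared barcodes kept, and its irradiated one (-1.27) was -23.8, -10.8, -30.7 and -14.4. Leaving out each library gave -10.6 (without irradiated replicate 2) to -5.36 (without irradiated replicate 1) for the CD45+ share in Panc02-SIY, -0.011 to 0.789 in MC38, -28.0 to -25.8 between untreated and -21.1 to -15.9 between irradiated lines. For the share of CD8 T cells it gave -7.14 to 2.04 (without irradiated replicate 1) in Panc02-SIY, -54.5 to -35.4 between untreated lines and -12.6 to 5.95 between irradiated lines, the last on a few MC38 cells.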
